A study of Gallus gallus with 6 samples.

Results

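Chicken red blood cells keep their nucleus, so red cells that remain in a blood leukocyte preparation can bring RNA of their own. The genes described here are 8 that red cells are known for: the adult beta globin HBBA, the membrane proteins SLC4A1, RHAG and XK, the transcription factors GATA1 and TAL1, the enzyme CA2 and the transferrin receptor TFRC. Their probes were found by matching the RefSeq accession of each array probe to a gene symbol. This gave 14 probes of 7 genes among 43603 probes, of which 11935 were matched to 5382 named genes. GATA1 was matched to no probe and was not analysed here. All 7 genes passed the filter on dim probes, and 12 of the 14 probes were well above background on all 6 arrays.

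The blood came from the wing vein of chickens aged 1 to 2 months, and the cells were those collected at the interface of a density gradient. There were 3 samples labelled male and 3 labelled female, with 1 Cy3-labelled array each. The stated aim was to compare expression between male and female birds. The series title speaks of transgenic and non-transgenic birds, but the labels of these samples give no strain, genotype or exact age. They number the samples without saying that each came from its own bird, so p-values measure only the spread between these samples. The 3 arrays labelled male shared 1 slide and the 3 labelled female the other, so label and slide cannot be told apart. With so few arrays, every value has limited precision.

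Red cell development has a well known order. GATA1 and TAL1 act together as transcription factors in erythroid precursors, which take up iron through the transferrin receptor, make haemoglobin from alpha-type and beta-type globin chains and haem, and fill their membrane with the anion exchanger SLC4A1 (band 3) and the Rh proteins. Carbonic anhydrase CA2 supplies the bicarbonate that SLC4A1 carries. TAL1 also serves the thrombocyte lineage, TFRC is used by dividing cells of many kinds, and XK is a membrane protein that carries a blood group antigen in human red cells. In a bulk sample, fewer red cells and less of a transcript per red cell cannot be told apart.

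Each value below is the log2 of the processed spot signal minus the 75th percentile of that array, so 0 is the level of the 75th percentile. A value is called well above background where the scanner software marked the spot so. Across the arrays, the share of non-control spots well above background was 79.0% to 83.1%, and no spot was saturated. The fraction carried leukocyte transcripts: the pan-leukocyte gene PTPRC (CD45) lay between 0.92 and 1.68 in every library. All 7 T cell genes and 6 B cell genes on the array passed the filter on dim probes. Most features did so, 29509 of 37043, so passing it does not by itself show these cell types. In 2 libraries the signal went against the label. HINTW, which lies on the female-specific W chromosome, read 4.58, 4.48 and 6.99 in the libraries labelled male 1, 2 and 3. It read 6.61, 6.47 and 4.65 in those labelled female 1, 2 and 3. Z chromosome genes split the libraries the same way. By label, their log2 shift was positive for male 1 (0.27), male 2 (0.26) and female 3 (0.28). It was negative for male 3 (-0.26), female 1 (-0.28) and female 2 (-0.26). The groups are kept as labelled, and each gene's difference is also given without the libraries labelled male 3 and female 3 where this moves it by over 1.5 times or turns its direction.

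**Figure D1:**
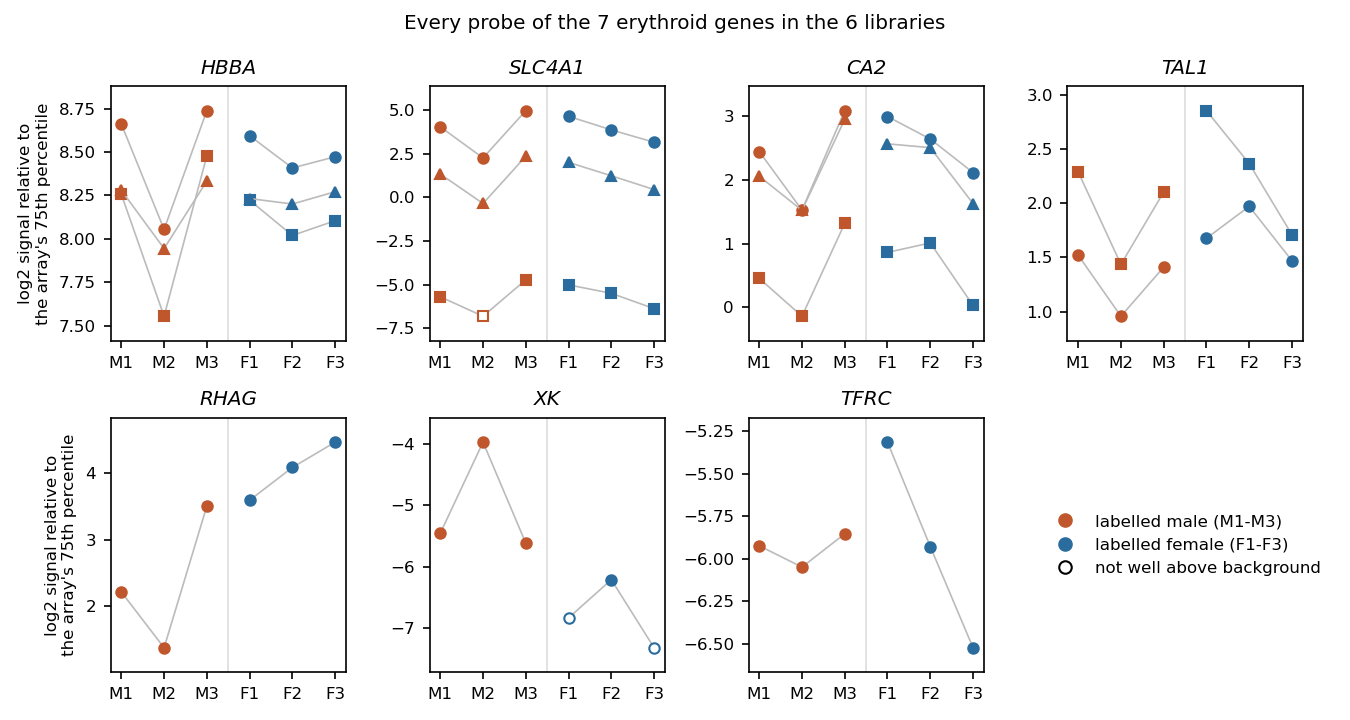
Normalized log2 signal of every probe of the 7 genes, in the 3 libraries labelled male (M1 to M3, orange) and the 3 labelled female (F1 to F3, blue). Marker shapes tell the probes of a gene apart, open markers are not well above background, grey lines only join a probe's values, and each panel has its own vertical scale. HBBA, SLC4A1, CA2, TAL1 and RHAG had their low point in the library labelled male 2, where XK was highest.

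HBBA, the adult beta globin chain encoded on chromosome 1, lay close to the top of the signal scale on every array. The range of its tested probe, 0.68 log2, was near the median of all features, 0.67 log2. Its tested probe read 8.66, 8.06 and 8.74 log2 in the libraries labelled male, against 8.59, 8.41 and 8.47 log2 in those labelled female. In processed signal this was 240937 units in the library labelled male 2 and 387233 units in that labelled male 3, with the other libraries between. The groups overlapped, since both the lowest and the highest value were in libraries labelled male. The other probes of HBBA placed the same libraries lowest and highest, with ranges of 0.92 and 0.39 log2, against 0.68 log2 for the tested probe. The HBBA probes thus differed in size but not in which library was lowest.

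The brightest spot of any array had a signal between 402324 and 416640 units, close to the highest HBBA value. Over all features, the 26 with a mean of at least 8 log2 had a median range of 0.19 log2. It was 0.53 log2 for the 118 with a mean between 7 and 8 log2 and 0.55 log2 for those between 4 and 7 log2. The alpha globin HBA1 had probes of unequal range: the brighter, at 7.31 to 8.30 log2, had a range of 0.99 log2, and the dimmer, at 4.98 to 7.64 log2, one of 2.67 log2. Whether the brightest spots were compressed near the top of the scale was not tested.

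All 7 measured globin genes were lowest in the library labelled male 2 and highest in that labelled male 3. Of all features, 14.9% were lowest in the library labelled male 2 and 14.9% were highest in that labelled male 3. The same held for each of the 9 globin probes that were well above background on all 6 arrays. Besides HBBA, the adult alpha-type chain HBAD read 8.01, 6.58 and 8.47 log2 in the libraries labelled male, against 8.22, 8.0 and 7.60 log2 in those labelled female. HBE1, a beta-type chain, read 2.82, 1.48 and 3.54 log2 in the libraries labelled male, against 3.12, 2.41 and 2.65 log2 in those labelled female. The low point in the library labelled male 2 was thus seen in abundant and less abundant chains.

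The embryonic beta-type chains HBBR (rho) and HBE (epsilon) were well above background on every array, with ranges of 1.53 and 1.55 log2. HBZ, the embryonic alpha-type chain, was near the background at -7.16 to -4.85 log2 and well above it on 5 of 6 arrays. HBBR and HBE were named after their values were seen. Globin genes of one type are near copies of each other, and how much of a probe's signal comes from its own gene was not tested. No globin gene passed between the labelled sexes (limma, 7 tested, adjusted p from 0.948 to 0.997), against 0% of all features. The median male minus female difference of the globin genes was -0.11 log2, and -0.47 log2 without the libraries labelled male 3 and female 3.

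**Figure D2:**
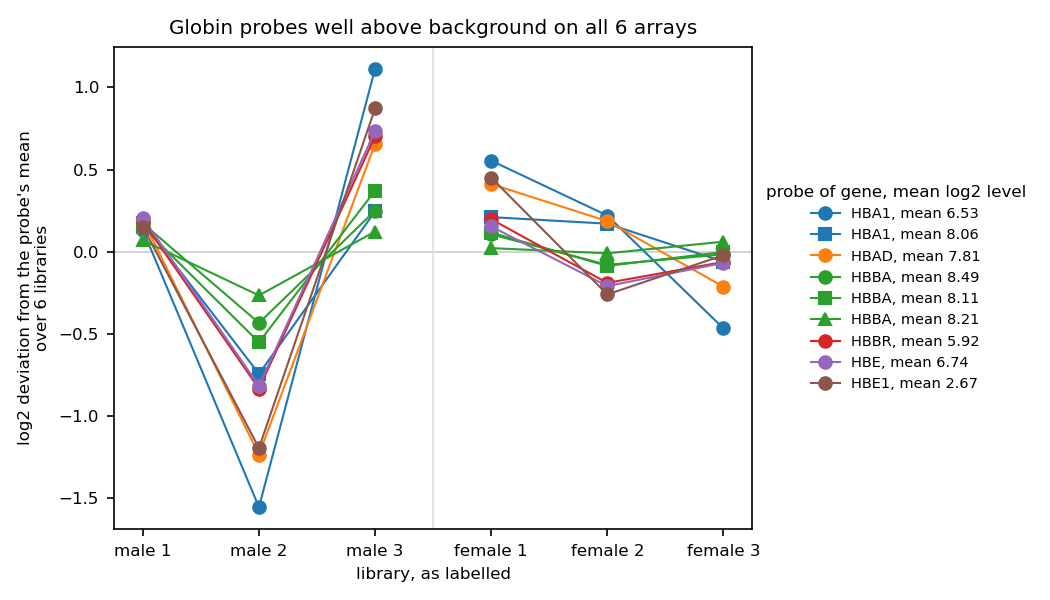
Deviation of each globin probe from its own mean over the 6 libraries (log2), by library as labelled; each line is 1 probe, and the legend gives its gene and mean level. All 9 probes had their lowest point in the library labelled male 2 and their highest in that labelled male 3, and the probes with a mean of at least 8 log2 moved least.

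SLC4A1, the band 3 anion exchanger on chromosome 27, followed the globins with a wider range. Its tested probe read 4.04, 2.26 and 4.96 log2 in the libraries labelled male, against 4.64, 3.87 and 3.16 log2 in those labelled female. The signal in the library labelled male 3 was 6.52-fold that in the library labelled male 2, and the female-labelled libraries lay between them. A second probe had almost the same range, 2.70 log2. The third was dim, at -6.80 to -4.71 log2, and was not well above background in the library labelled male 2, but it too was lowest there and highest in the library labelled male 3.

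The range of 2.71 log2 for SLC4A1 was reached by 2.92% of all features. It was 1.81 log2 without the library labelled male 2, so that library widened it but did not make it alone. The male minus female difference was -0.13 log2 (SE 0.73, limma adjusted p = 0.981), and the groups averaged 3.75 ± 1.37 log2 (male) and 3.89 ± 0.74 log2 (female; SD, n = 3 each). It turned to 0.61 log2 without the library labelled male 2 and to 0.24 log2 without that labelled female 1, and it was -1.10 log2 without the libraries labelled male 3 and female 3. The sign of the SLC4A1 difference thus rested on single libraries.

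RHAG, the Rh-associated glycoprotein on chromosome 3, broke with the globins. The libraries labelled male had values of 2.21, 1.37 and 3.50 log2, against 3.59, 4.09 and 4.47 log2 for those labelled female. All 3 libraries labelled male were below all 3 labelled female, though by only 0.09 log2 between the closest pair, labelled male 3 and female 1. By HINTW level, however, the library labelled male 3 was like female 1 and 2. That labelled female 3 was like male 1 and 2. Grouped so, the RHAG values overlapped. The library labelled female 3 was the highest for RHAG, where HBAD and SLC4A1 had their second lowest value.

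The RHAG difference was -1.69 log2, or 3.22-fold lower in the libraries labelled male (SE 0.55), where the mean was 2.36 ± 1.07 log2, against 4.05 ± 0.44 log2 in those labelled female (SD, n = 3 each). It did not pass over all features (limma adjusted p = 0.948), with an unadjusted p of 0.0204. Without the libraries labelled male 3 and female 3 it was -2.05 log2 (SE 0.36, limma adjusted p = 0.121), the lowest adjusted p of its 17 alternatives, which reached 1.00. RHAG had 1 probe, so no second probe could be set beside it.

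XK, on chromosome 1, ran the other way, and close to the background. Its values were -5.46, -3.98 and -5.62 log2 with the male label, against -6.83, -6.21 and -7.32 log2 with the female label. Its processed signal was only 5.46 to 57.6 units. The probe was well above background in all 3 libraries labelled male and in 1 labelled female, female 2. The male-labelled libraries did not overlap the female-labelled ones, and the library labelled male 2, lowest for the globins, was the highest for XK. Grouped by HINTW level, as for RHAG, the XK values overlapped.

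The XK difference was 1.77 log2 (SE 0.50, limma adjusted p = 0.948, unadjusted p = 0.0116), and the mean was -5.02 ± 0.91 log2 for the male label, against -6.79 ± 0.55 log2 for the female one (SD, n = 3 each). Without the libraries labelled male 3 and female 3 it was 1.81 log2 (limma adjusted p = 0.202, the lowest of 16 alternatives, which reached 1.00). After normexp background correction, run on median spot and background signals with an offset of 50, the XK difference shrank to 0.50 log2. The range of XK shrank to 0.85 log2, where it was 3.34 log2 without that correction. Among features with a mean under -4 log2, 44.5% had a range of at least 1 log2, so wide ranges are common at the level of XK.

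CA2, the cytosolic carbonic anhydrase on chromosome 2, again had its low point in the library labelled male 2. Its tested probe read 2.45, 1.53 and 3.09 log2 in the libraries labelled male, against 3.00, 2.64 and 2.12 log2 in those labelled female. Its 3 probes were all lowest in the library labelled male 2 and highest in that labelled male 3, with ranges of 1.43 to 1.56 log2. The library labelled female 3 was the second lowest on each probe. The male minus female difference was -0.23 log2 (SE 0.43, limma adjusted p = 0.951). It was 0.18 log2 without the library labelled male 2, and -0.83 log2 without those labelled male 3 and female 3 (limma adjusted p = 0.284, the lowest of 17 alternatives, which reached 1.00).

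TAL1, the transcription factor on chromosome 8, was lowest in the library labelled male 2 on both probes. The tested probe read 2.29, 1.43 and 2.10 log2 in the libraries labelled male, against 2.85, 2.36 and 1.71 log2 in those labelled female, and the groups overlapped. The second probe was highest in the library labelled female 2, not female 1, and had a range of 1.01 log2 against 1.42 log2. The male minus female difference was -0.37 log2 (SE 0.35, limma adjusted p = 0.948), and -0.75 log2 without the libraries labelled male 3 and female 3. It was only -0.09 log2 without the library labelled female 1 and -0.11 log2 without that labelled male 2. The list of 5 thrombocyte genes, a lineage that also uses TAL1, did not have its low point there: its mean deviation in the library labelled male 2 was 0.04 log2. The share of TAL1 signal from each kind of cell was not tested.

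TFRC, the transferrin receptor on chromosome 9, was dim, with a processed signal of 9.48 to 24.3 units, though well above background on every array. Its values were -5.92, -6.05 and -5.85 log2 for the libraries labelled male, against -5.32, -5.93 and -6.52 log2 for those labelled female. The male-labelled values lay within the female-labelled ones, and the range was 1.21 log2, with both its ends in libraries labelled female. It was 0.67 log2 without the library labelled female 1, 0.73 log2 without that labelled female 3 and 0.20 log2 after normexp. The male minus female difference was -0.02 log2 (SE 0.30, limma adjusted p = 0.993), and -0.37 log2 without the libraries labelled male 3 and female 3. The list of 8 cell cycle genes had its highest mean deviation in the library labelled male 1 (0.57 log2), where TFRC was neither highest nor lowest. Which cells the dim TFRC signal came from was not tested.

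**Figure D3:**
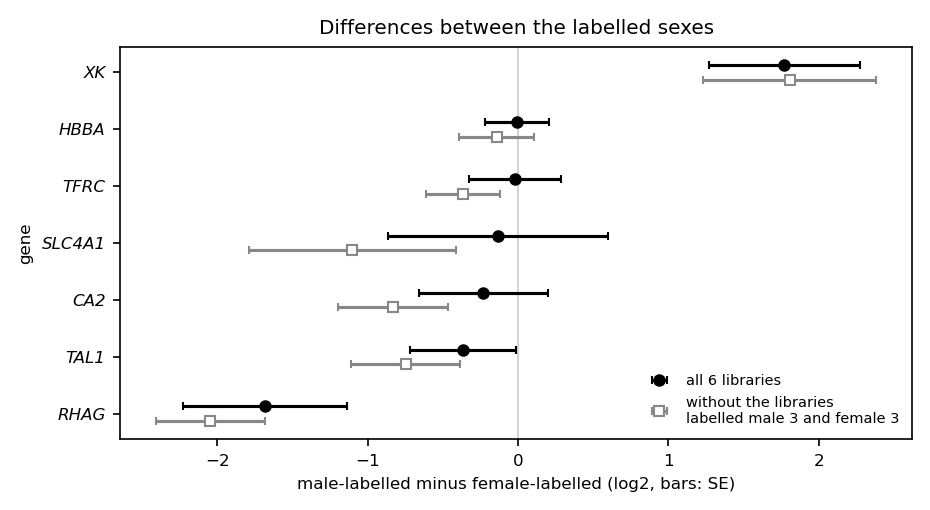
Difference between the libraries labelled male and those labelled female for the 7 genes (log2, male minus female; bars are the limma SE), with all 6 libraries (filled circles) and without those labelled male 3 and female 3 (open squares). XK was the only one above 0 and RHAG the farthest below, and no gene passed in either comparison.

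Between the labelled sexes, none of the 7 genes passed (limma, adjusted p threshold 0.05), as was the case for all 29509 features (0%). At an unadjusted p under 0.05 there were 2 of the 7, RHAG and XK, against 3.81% of all features. The same 2 were without overlap between the groups, against 8% of all features. By label RHAG was lower throughout, as 4.16% of all features were, and XK higher, as 3.84% were. Grouped by HINTW level instead of label, both genes overlapped. By sign 6 of 7 were lower in the male-labelled mean, against 52.6% of all features, with a median of -0.13 log2 against -0.01 log2 over all features. That median was 0.18 log2 without the library labelled male 2 and 0.04 log2 without that labelled female 1. The count by sign includes HBBA at -0.007 log2 (SE 0.21) and TFRC at -0.02 log2 (SE 0.30), both far within their SE. Without the library labelled male 2, HBBA, SLC4A1, CA2 and TFRC were higher in the male-labelled mean, so the count rested largely on that library.

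Without the libraries labelled male 3 and female 3 the median of the 7 genes was -0.75 log2, against -0.04 log2 over all features. Of the 7, 6 were lower in the male-labelled mean, against 54.3% of all features. Again none of the 7 passed (limma), while 0.288% of all features did. At an unadjusted p under 0.05 there were 2 of the 7, against 21.6% of all features. In that comparison 4 of 7 had no overlap, against 57.2% of all features, a share that leaves nothing to read from the 4. The library labelled male 2 is 1 of only 2 male-labelled libraries left there.

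Of the 7 genes, 6 had a range of at least 1 log2 over the 6 libraries, against 27.8% of all features, and HBBA was the exception. At 2 log2 or more there were 3, SLC4A1, RHAG and XK, against 6.06% of all features. Without the library labelled male 2, RHAG alone still reached 2 log2, with SLC4A1 at 1.81 and XK at 1.86 log2. The count at 1 log2 or more was 4 of 7 after normexp, which took out XK and TFRC, against 11.4% of all features. It was also 4 without the library labelled female 1, which put TAL1 at 0.93 and TFRC at 0.67 log2, and 5 without that labelled male 2, which put CA2 at 0.97 log2. The median range of the 7 genes range was 1.56 log2, against 0.67 log2 over all features. The library labelled male 2 was lowest for 5 of them, against 14.9% of all features. That labelled female 3 was lowest for XK and TFRC, both dim, against 22.8% of all features, the largest share of any library. All 7 genes together deviated on average by -0.001, -0.52 and 0.38 log2 for male 1, 2 and 3. For female 1, 2 and 3 this was 0.32, 0.14 and -0.31 log2. On the tested probes, the second lowest library was that labelled female 3 for SLC4A1, CA2 and TAL1, and that labelled female 2 for HBBA.

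**Figure D4:**
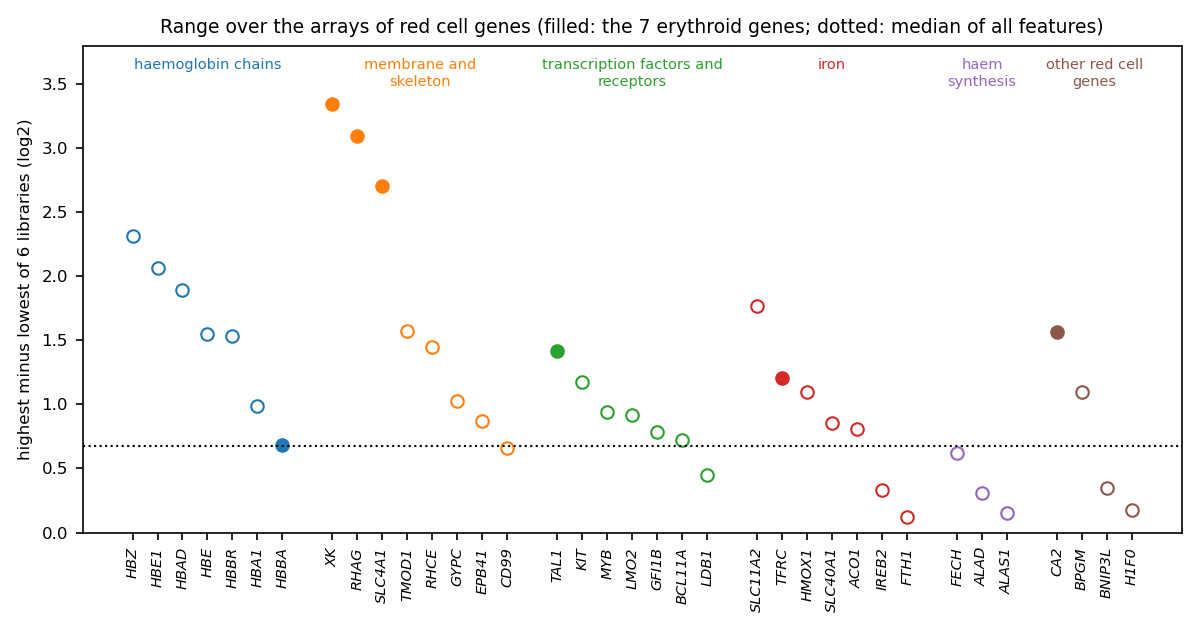
Highest minus lowest normalized value over the 6 libraries (log2) for the 36 measured genes of the red cell lists, grouped by role; filled points are the 7 genes, and the dotted line is the median over all features, 0.67 log2. XK, RHAG and SLC4A1 had the widest ranges, and haem synthesis genes lay under the dotted line.

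Other genes of red cells did not all follow. Of 29 further measured red cell genes, 15 were lowest in the library labelled male 2, against 14.9% of all features. A range of at least 1 log2 was reached by 12, against 27.8% of all features. The 29 include the globins other than HBBA, all lowest in that library, and 5 of these had such a range. By sign, 16 of the 29 had a lower and 13 a higher mean in the libraries labelled male, where 52.6% of all features were lower. None passed (limma), against 0% of all features, and none reached an unadjusted p under 0.05, against 3.81%. Without the libraries labelled male 3 and female 3, 19 were lower and 10 higher, 3 having turned sign, where 54.3% of all features were lower. None of the 29 passed there (limma), against 0.288% of all features. An unadjusted p under 0.05 was reached by 4, against 21.6% of all features. Of 11 listed genes of haem synthesis, 3 were measured. ALAS1, the housekeeping form of its first enzyme, had a range of 0.15 log2 and ALAD one of 0.31 log2. FECH, which inserts the iron and lies on the Z chromosome, had one of 0.62 log2, reached by 55.1% of all features. H1F0, listed with the synonym H5, the linker histone of nucleated red cells, was bright and steady, with a range of 0.17 log2. Its values were 7.71, 7.59 and 7.58 log2 for the libraries labelled male, against 7.75, 7.62 and 7.68 log2 in those labelled female. BNIP3L, known for clearing mitochondria from maturing red cells, had a range of 0.35 log2.

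BPGM, which makes a regulator of haemoglobin's oxygen affinity in mammals, was lowest in the library labelled male 2, at -0.21 log2, against up to 0.88 log2 in that labelled female 1. Among transcription factors and receptors, GFI1B had a male minus female difference of -0.28 log2 (-0.70 without the libraries labelled male 3 and female 3), MYB one of -0.37 log2 and BCL11A, which represses fetal globin genes in humans, one of 0.24 log2. KIT, the stem cell factor receptor, differed by 0.38 log2. Among iron genes, the transporter SLC11A2 differed by 0.44 log2 (SE 0.48) and had a range of 1.77 log2, with the lowest value in the library labelled female 3. Without those labelled male 3 and female 3 its difference turned to -0.08 log2. The iron exporter SLC40A1 differed by -0.32 log2 (-0.18 without those 2 libraries) and haem oxygenase HMOX1 by -0.23 log2. The membrane skeleton gene EPB41 differed by -0.38 log2 (-0.65 without those 2 libraries) and the surface protein gene CD99 by 0.30 log2.

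**Figure D5:**
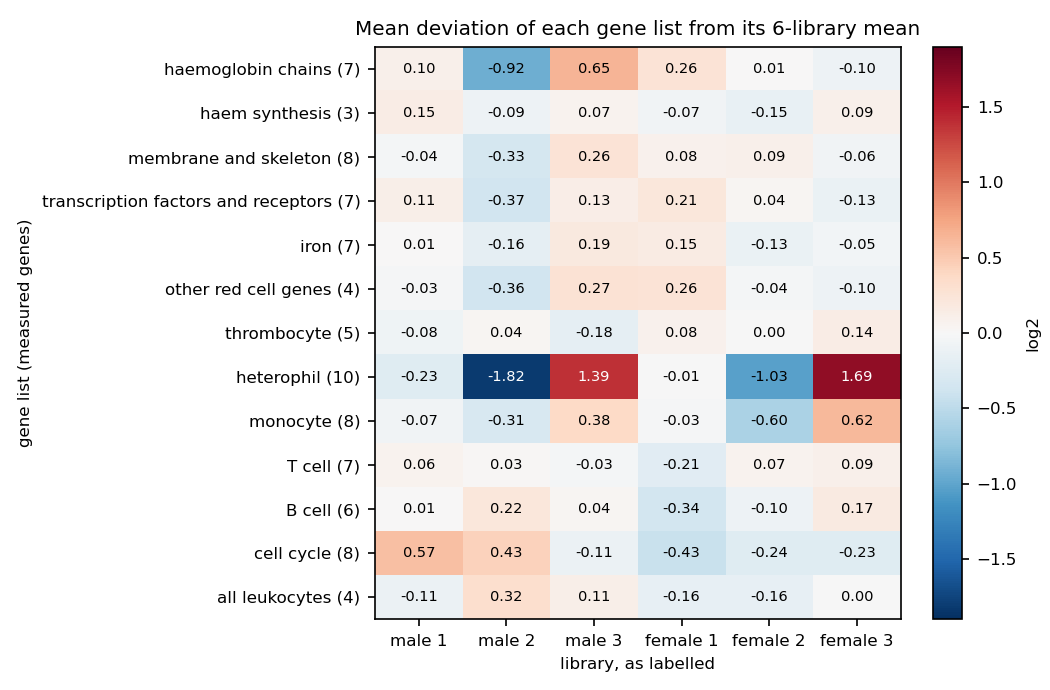
Mean deviation of each gene list from its mean over the 6 libraries (log2; colours from blue, below, to red, above), by library as labelled, with the number of measured genes in brackets. Haemoglobin chains were lowest in the library labelled male 2 and highest in that labelled male 3, and heterophil genes were lowest in that labelled male 2 and highest in that labelled female 3.

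Transcripts of heterophils, the chicken counterpart of neutrophils, also varied between libraries. Of 10 measured heterophil genes 8 were lowest in the library labelled male 2, where their mean deviation was -1.82 log2. Their summed level, in units of the array's 75th percentile, was 9.16 to 119 in the libraries labelled male and 14.5 to 159 in those labelled female. The library labelled female 3, however, had the highest mean deviation of heterophil genes, 1.69 log2, and one of -0.10 log2 for haemoglobin chains. The 8 monocyte genes were at -0.31 log2 in the library labelled male 2 and at 0.62 log2 in that labelled female 3. Only 2 of the 8 were lowest in the library labelled male 2, and FCER1G was highest there, at 3.17 log2. The low mean there rested on LYG2, at -3.79 log2 with a range of 5.07 log2, named after its values were seen. The summed level of the monocyte genes was 23.4 to 26.5 in the libraries labelled male and 19.8 to 31.5 in those labelled female.

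The remaining lists of other cells were above their mean in the library labelled male 2. Their mean deviation there was 0.03 log2 for 7 T cell genes, 0.22 for 6 B cell genes, 0.32 for 4 genes of all leukocytes and 0.43 log2 for the 8 cell cycle genes. The T cell mean rested on CD8A, which was highest there at 1.23 log2, while 3 of the 7 genes were lowest there. The summed level of the 5 thrombocyte genes was 251 to 336 in the libraries labelled male and 305 to 348 in those labelled female. That of the haemoglobin chains was 618 to 1385 in the libraries labelled male and 971 to 1191 in those labelled female. Only markers that passed the filter on dim probes were counted as measured. That they were measured therefore does not show which cell types were present. The part of other cells in the erythroid values was not tested.

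For each gene with a range of at least 1 log2, the nearest named genes were found among 4858 others. Distance was the root mean square difference of centred values over the 6 libraries. It was not scaled for range, so genes with small ranges tend to lie closer to each other. SLC4A1 was closest to the transporter gene SLC47A2 (0.17 log2), which read -3.52, -5.17 and -2.11 log2 in the libraries labelled male, against -2.95, -3.65 and -4.22 log2 in those labelled female. The anion exchanger gene SLC4A2 and the tropomodulin gene TMOD4 followed at 0.28 and 0.31 log2. CA2 was closest to SLC4A2 (0.14 log2), NKX2-6 (0.16) and the globin HBAD (0.17 log2).

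TAL1 was closest to the tubulin gene TUBB2B (0.11 log2), ADCY6 and NHLRC2 (both 0.13 log2). The genes nearest to TFRC were ALC (0.08 log2), GPR39 (0.08) and FBXW2 (0.12 log2), none of them on the red cell lists. RHAG and XK were farther from every other named gene. The nearest to RHAG were C1QTNF2 at 0.49, BMP3 at 0.50 and KCNA2 at 0.51 log2, and the nearest to XK were HIC2 at 0.46, the histone gene HIST1H111L at 0.48 and CHMP4C at 0.51 log2. Among the 7 genes themselves, RHAG and XK were the farthest apart (2.10 log2), and TAL1 and TFRC the closest (0.28 log2).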

How the data were processed

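The scanner tables held spot intensity as deposited by the authors. Per the file headers it was read with Agilent Feature Extraction 11.5.1.1, background-subtracted within the array, on a grid that names galGal3. The authors' deposited matrix held the same intensity times 1 factor per array (2.10 to 2.31). Background and outlier marks were those in the files, and 3 to 12 outlier spots per array were left out.

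The processed signal was put on the log2 scale, the 75th percentile of the array was subtracted, and spots of 1 probe were averaged. A probe was kept (35141 were) if at least 3 of 6 arrays had it well above background. The kept probe with the highest mean stood for its gene, and each probe without a name for itself, in all 29509 features (4859 named genes). Names came from RefSeq accessions through the RefSeq gene table of another build, GRCg7b, so chromosomes but no positions are given.

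The labels were compared with limma 3.58.1 in R 4.3.3 (two-sided, empirical Bayes, Benjamini-Hochberg adjustment across all features, threshold 0.05), as male minus female, and the code was checked on simulated data. Single probes come from a fit with each kept probe as a feature. Normexp was run on median spot and background signals with an offset of 50. The genes named are the 7 described, up to 4 of each list by smallest p, and the 3 nearest in centred values. The members and lists were chosen with earlier results of these data known. Tables and figures used Python 3.11.15, pandas 2.3.3 and matplotlib 3.10.9.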

Additional observations from a re-analysis of the deposited data

How the results depend on the processing

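Over 17 alternatives of scaling, background, filter, gene summary, test and samples, none of the 7 genes passed in any (limma, adjusted p threshold 0.05; XK drops out where every array must be well above background, which left 1 of the genes without overlap instead of 2). Of 118 recomputed differences of single genes, 107 kept their direction and 11 reversed. Many of the 107 could not have reversed. The changed filters, the fit of single probes, the replicate block and the intensity trend left each difference as it was. The mean of a gene's probes did so for RHAG, XK and TFRC, which had 1 probe each. The 107 therefore overstate how stable the directions were. The 11 were HBBA at 0.041 with median scaling, TFRC at 0.028 with median scaling, 0.040 after quantile normalization and 0.0060 after normexp, and the following left-out libraries. Without the library labelled male 2, CA2 was at 0.18, HBBA at 0.21, SLC4A1 at 0.61 and TFRC at 0.03 log2. Without that labelled female 1, HBBA was at 0.04, SLC4A1 at 0.24 and TFRC at 0.28 log2. The directions held without those labelled male 3 and female 3, where CA2 was at -0.83, HBBA at -0.14, SLC4A1 at -1.10 and TFRC at -0.37 log2. RHAG stayed between -2.26 and -1.19 and XK between 0.50 and 2.07 log2 in all of their alternatives. The median of the 7 genes ranged from -0.47 to 0.18 log2 when single libraries were left out (0.04 without that labelled female 1, 0.18 without that labelled male 2) and was -0.75 log2 without those labelled male 3 and female 3, where 4 genes were without overlap. When single libraries were left out, 0 to 2 of all features passed; 1 passed after quantile normalization and 85 without the libraries labelled male 3 and female 3.

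No pairing by replicate number was seen: deviations of same-numbered libraries correlated at 0.01, -0.11 and -0.21. The last value is between the libraries labelled male 3 and female 3, whose HINTW went against the label. So few correlations cannot settle whether the samples were paired. With the replicate number as a block, 0 features and 0 of the 7 genes passed (limma adjusted p = 0.963 for RHAG and XK). In this balanced design the block cannot change a difference, only its SE. The median of the 7 genes therefore stayed at -0.13 log2, and RHAG and XK at -1.69 and 1.77 log2. The causes of the changes were not tested, beyond the libraries named. Dim signal limits XK and TFRC. Whether the top of the signal scale limits HBBA was not tested; its range of 0.68 log2 was 0.38 after normexp and 0.33 without the library labelled male 2.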
